A study of Homo sapiens with 6 samples.

Results

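The genes described here serve glucose uptake, glycolysis, the fate of pyruvate and the pentose phosphate pathway in U251 cells, an established human glioblastoma line. They are 34 genes chosen by name for these functions, with earlier results of these data known. All 34 have probes in the array table (60 of its 47231 probes), and 33 have a probe that passed a detection filter, against 10517 such genes on the whole array. PDK1 is the member that did not pass. The filter asked for a detection p below 0.05, which compares a probe with the negative control beads of its array, on at least 3 of 6 arrays. 48 probes of the members passed. The probes nearest to the limit were the PDK2 probe and one of 3 PFKFB2 probes, both detected on 3 arrays and tested, and one PFKP probe, detected on 2 and not tested.

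Cells in DMEM with 10% FBS were transduced for 5 days with lentivirus made from a pLKO1.5 vector. It carried either a non-target shRNA (shCON, 3 arrays) or an shRNA against cyclophilin B (shCypB, 3 arrays), a prolyl isomerase of the endoplasmic reticulum encoded by PPIB. The labels call the 3 samples of a group biological replicates and name no other treatment. A single shRNA sequence represents the knockdown, so effects of losing the protein and off-target effects of that sequence cannot be told apart. Total RNA was labelled with biotin and read on one-colour Illumina bead arrays. All 6 samples share the parent line and the vector, and the labels name no selected clone.

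Between 16597 and 18700 probes were detected per array. Log2 signals over tested probes correlated with Pearson r of 0.987 to 0.994 within groups and 0.957 to 0.965 between groups, and no array stood apart. The PPIB probe was dim, with a log2 signal of 6.05, 5.68 and 5.35 in shCON and 4.58, 4.44 and 4.81 in shCypB. It was detected on 3 shCON and 0 shCypB arrays, so it passed the filter through the shCON arrays alone. The fall was at least 1.45-fold, with an adjusted p of 0.011 in the limma fit over all probes without the filter. Of 8 glioma and astrocyte markers 7 were tested, with a summed linear signal of 23848 to 27327 in shCON and 23306 to 24928 in shCypB. That sum is weighted toward bright probes such as VIM and CD44, so it hides changes at dimmer ones. Of the 8 markers, GFAP (log2 change -1.84), FABP7 (-1.07) and NES (-0.66) were lower, SLC1A3 (0.50) and SOX2 (0.35) were higher, and S100B was undetected. VIM (-0.23) and CD44 (0.22) were not called at the brightest probe. A dimmer probe was called lower for VIM (-0.39, adjusted p = 0.015) and higher for CD44 (0.35, adjusted p = 0.030). The NES call was lost under median scaling (adjusted p = 0.27), and those of SOX2 and SLC1A3 under several settings that left out an array (adjusted p of up to 0.13 and 0.061). Of 5 immune markers 3 were tested and 0 called, namely CD68 (0.20), CD14 (-0.49) and AIF1 (-0.81, adjusted p = 0.053), with a summed signal of 299 to 322 in shCON and 277 to 296 in shCypB, and PTPRC was undetected. AIF1 was called lower under 9 of 15 other settings. Of 5 endothelial markers VWF was tested and not called (-0.52), with a signal of 33 to 62 in shCON and 28 to 35 in shCypB. CDH5 and KDR were undetected. PECAM1 was detected on 2 shCypB and 0 shCON arrays, and a TEK probe on 2 shCON and 0 shCypB arrays, so neither was tested. No oligodendrocyte marker passed the filter. Of 5 neuron markers the 2 that were tested, SYT1 and GAD1, were higher in shCypB, with a summed linear signal of 363 to 391 in shCON and 660 to 708 in shCypB. SYT1 was detected on 1 shCON and 3 shCypB arrays, and 1 of 3 GAD1 probes was not called (log2 change -0.17). RBFOX3 and SLC17A7 were undetected, and SNAP25 had a probe detected on 1 shCypB and 0 shCON arrays, which was not tested. The part of these marker differences in the results below was not tested.

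Glucose enters cells through facilitative transporters of the SLC2A family and is trapped by hexokinases. The upper steps of glycolysis turn the phosphorylated hexose into triose phosphates, with phosphofructokinase as the main control point. The lower steps yield ATP and pyruvate, which becomes lactate or enters mitochondria through the pyruvate dehydrogenase complex. The pentose phosphate pathway branches off at glucose phosphate and supplies NADPH and ribose for biosynthesis. Glioblastoma cells are known for high glucose uptake and lactate release.

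Across these steps the response was small and of mixed direction, with a few large exceptions. The glucose transporter gene SLC2A3 rose 5.19-fold, and PGD, the second dehydrogenase of the pentose phosphate pathway, fell 2.23-fold. SLC2A12, PFKL, TPI1, SLC2A10, TKT, PDHB, TALDO1 and ALDOA also fell, and PFKM, PGK1, RPIA and PKM rose, each by less than 1.8-fold. A gene is called here at an adjusted p below 0.05 in a limma fit over all 17608 tested probes, and is represented by its brightest tested probe. By this rule 5 of 33 members were higher in shCypB (15.2%), against 23.1% of all tested genes. A total of 9 members were lower (27.3%), against 20.8% of all tested genes, and 19 were not called. These shares lie near the background of a comparison in which 43.8% of all genes were called. The members were chosen with earlier results of these data known, so the shares only describe the chosen genes. By probe, 7 of the 48 tested probes of the members were higher (background 20.3% of all tested probes), one of which, for PFKFB2, passed the filter through the shCypB arrays alone, and 12 were lower (background 18.2%). The arrays of the groups did not overlap for 6 of 33 members that were higher in shCypB, against 30.1% of all tested genes. The same held for 11 of 33 that were lower, against 26.8%. The median log2 change was -0.01 over the 33 members and 0.03 over all tested genes.

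The counts by step rest on 5 to 10 tested genes each, and whether the steps differ was not tested. Of all tested genes 23.1% were higher and 20.8% lower. At uptake and hexokinase 1 of 6 genes rose and 2 fell, with a median log2 change of -0.22. In upper glycolysis 1 of 10 rose and 3 fell, with a median of -8e-04. In lower glycolysis 2 of 5 rose and 0 fell, with a median of 0.27. Of 6 tested genes at the pyruvate branch 0 rose and 1 fell, with a median of 0.04. In the pentose phosphate pathway 1 of 6 rose and 3 fell, with a median of -0.22. When arrays were scaled to their median signal instead of quantile normalized, the median over all tested genes shifted to 0.25, the medians of uptake and pentose genes turned to 0.04, and that of lower glycolysis was 0.53. Relative to that shift they were -0.21 for both uptake and pentose genes, and 0.28 for lower glycolysis.

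**Figure D1:**
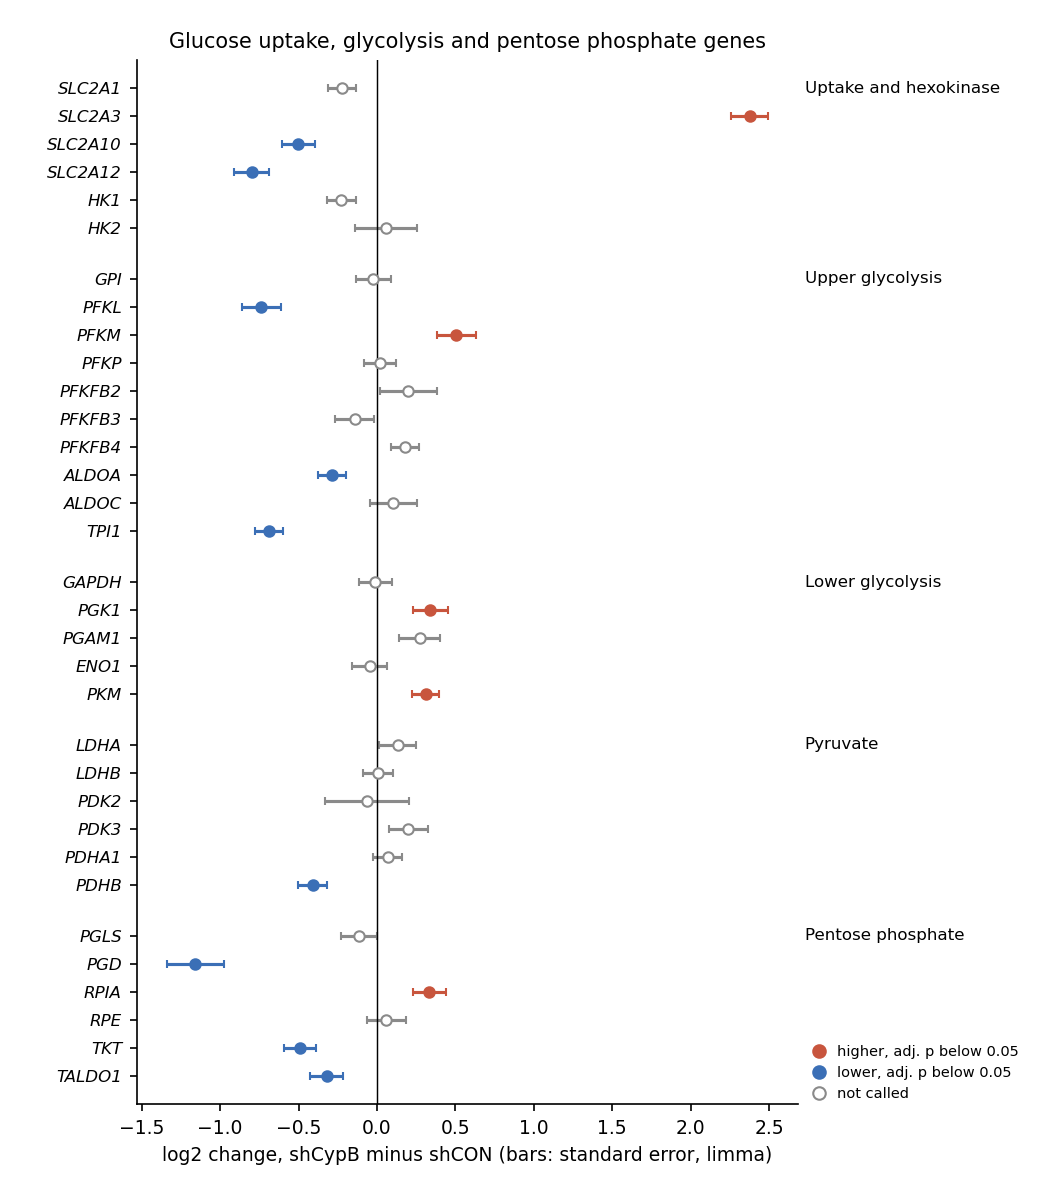
Log2 change (shCypB minus shCON, x axis) of the 33 tested members, grouped by step, with the limma standard error from 3 arrays per group as bars and filled points for adjusted p below 0.05. SLC2A3 stands at 2.38 and PGD at -1.16, and the others lie between -0.80 and 0.51. Under median scaling all tested genes shift upward by about 0.25 in median, and the smaller falls move toward 0.

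The transporters moved apart. SLC2A3 encodes GLUT3, the high-affinity transporter known from neurons. Its deposited bead signals were 155.5, 198.1 and 157.5 in shCON and 769.5, 784.8 and 818.1 in shCypB. After normalization its log2 signal was 6.85, 7.05 and 7.16 in shCON and 9.27, 9.47 and 9.44 in shCypB. Every shCypB array was above every shCON array, and the gap was many times the spread within either group. The log2 change was 2.38 ± 0.12 (standard error, 95% interval 2.10 to 2.65, adjusted p = 3.7e-05). SLC2A14 is a near-identical neighbour gene whose transcripts could add to this signal. Its own probe was detected on 0 of 6 arrays. The RNA comes from whole cultures, so a change in some cells and a change in all of them cannot be told apart, here and in every result that follows.

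SLC2A1 encodes GLUT1, the basal transporter of most cells. Its log2 signal was 10.77, 10.68 and 10.71 in shCON and 10.47, 10.47 and 10.56 in shCypB. The groups did not overlap, but the log2 change of -0.22 ± 0.09 did not pass (adjusted p = 0.090, 95% interval -0.43 to -0.01). Under median scaling the SLC2A1 change was 0.06, or -0.19 relative to the median of all tested genes. SLC2A12 encodes GLUT12, a transporter known from insulin-responsive tissue. It had a log2 signal of 8.01, 8.15 and 8.13 in shCON and of 7.47, 7.25 and 7.17 in shCypB. It was lower on each shCypB array, by 0.80 ± 0.11 on the log2 scale (adjusted p = 0.0014, log2 change -0.80). SLC2A10, which encodes GLUT10, had a log2 signal of 8.69, 8.56 and 8.71 in shCON and 8.13, 8.29 and 8.03 in shCypB at its brighter probe, a log2 change of -0.50 ± 0.11 (adjusted p = 0.0079). Its dimmer probe overlapped between groups, with a log2 change of -0.05 ± 0.20 that did not pass. With the probes averaged SLC2A10 lost its call (log2 change -0.28, adjusted p = 0.079), as it did under median scaling (-0.22, adjusted p = 0.54). Relative to the median of all tested genes the latter change was -0.47.

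Hexokinases commit glucose to metabolism inside the cell. HK1, the isozyme of most tissues, had 4 probes on the array, of which 2 were detected on all 6 arrays and 2 on none. Its bright probe read 12.49, 12.35 and 12.52 in shCON and 12.26, 12.24 and 12.17 in shCypB, on the log2 scale. The groups did not overlap, but the log2 change of -0.23 ± 0.09 did not pass (adjusted p = 0.098), nor did the -0.32 ± 0.14 of its dim probe. Under median scaling the change at the bright probe was 0.03, or -0.22 relative to the median of all tested genes. HK2, the inducible isozyme of many tumours, read 6.21, 6.46 and 6.35 in shCON and 6.45, 6.77 and 5.98 in shCypB. Its groups overlapped at both probes, with log2 changes of 0.06 ± 0.20 and -0.22 ± 0.14.

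**Figure D2:**
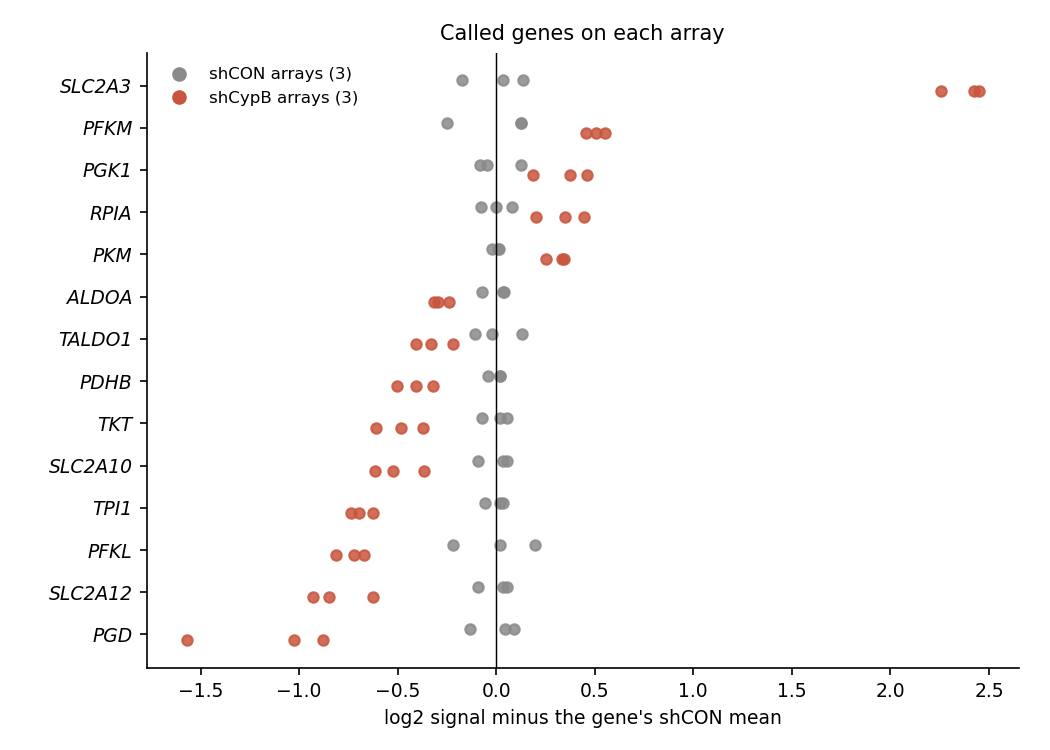
Log2 signal of the 14 called members on each array, minus the shCON mean of that gene (x axis), with grey points for the 3 shCON arrays and red points for the 3 shCypB arrays. The groups do not overlap for any of the 14, and the gap is widest for SLC2A3, while for PGK1, RPIA and TALDO1 the gap between groups is smaller than the range within either group.

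In upper glycolysis the 3 phosphofructokinase subunit genes took different courses. PFKL, named for the liver form, had a log2 signal of 8.29, 7.87 and 8.11 in shCON and 7.28, 7.42 and 7.37 in shCypB. It was lower on each shCypB array, with a log2 change of -0.74 ± 0.13 (adjusted p = 0.0032). PFKM, the muscle form, read 8.75, 8.75 and 8.37 in shCON and 9.18, 9.13 and 9.08 in shCypB. It was higher on each shCypB array, with a log2 change of 0.51 ± 0.13 (adjusted p = 0.016), and without shCypB replicate 1 the change was 0.48 (adjusted p = 0.058). PFKP, the platelet form, read 10.85, 10.84 and 10.95 in shCON and 11.02, 10.77 and 10.91 in shCypB. Its groups overlapped, and the 95% interval of its log2 change of 0.02 ran from -0.22 to 0.26. GPI, which precedes them in the pathway, had a log2 change of -0.02 with an interval of -0.28 to 0.24.

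The PFKFB genes encode the bifunctional enzymes that set the level of an activator of phosphofructokinase. PFKFB3, the form with the strongest kinase activity, was not called at either probe (log2 changes -0.14 ± 0.12 and -0.01 ± 0.17). PFKFB4 read 9.55, 9.56 and 9.62 in shCON and 9.72, 9.82 and 9.74 in shCypB. These groups did not overlap, yet the log2 change of 0.18 ± 0.09 did not pass (adjusted p = 0.15). PFKFB2, the cardiac form, was dim, and its probes disagreed. One probe was undetected on all 3 shCON arrays and detected on all 3 shCypB arrays, at log2 signals of 5.95, 6.01 and 5.61, which is at least 1.53-fold above shCON. It passed the filter through the shCypB arrays alone, so its place among the called probes had been favoured by the filter, and no p is given for it. The probe that represents the gene had a log2 change of 0.20 ± 0.18 (adjusted p = 0.42), and a further probe, detected on 1 array, was not tested. These probes are annotated to different transcripts of the gene, and which splice forms they read was not checked.

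TPI1, which interconverts the triose phosphates, fell at both of its probes. At the brighter one the log2 signal was 12.41, 12.43 and 12.34 in shCON and 11.65, 11.70 and 11.77 in shCypB. The log2 change was -0.69 ± 0.09 (adjusted p = 0.0010), and at the other probe it was -0.77 ± 0.17 (adjusted p = 0.0087). ALDOA, the main aldolase, read 12.00, 12.11 and 12.12 in shCON and 11.84, 11.78 and 11.76 in shCypB. It was lower on each shCypB array by a small step, with log2 changes of -0.28 ± 0.09 (adjusted p = 0.040) and -0.38 ± 0.11 (adjusted p = 0.028) at its 2 tested probes. The call of ALDOA at the brighter probe was lost when any 1 of the 6 arrays was left out (adjusted p = 0.053 to 0.12). Under median scaling its log2 change was -0.02 (adjusted p = 0.96), or -0.27 relative to the median of all tested genes. ALDOC, the brain aldolase, was dim and was not called (log2 change 0.10 ± 0.15).

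In lower glycolysis no gene fell. The files carry no saturation mark, so whether bright probes understate a change was not tested. ENO1, the main enolase, read 14.30, 13.97 and 14.16 in shCON and 14.17, 14.05 and 14.07 in shCypB, and the 95% interval of its log2 change ran from -0.31 to 0.22. GAPDH, which is often used as a reference gene, had log2 changes of -0.01 ± 0.11, -0.07 ± 0.09 and -0.20 ± 0.09 at its 3 probes, none of which passed. PGAM1, the mutase before enolase, had log2 changes of 0.27 ± 0.13 and 0.24 ± 0.13, which did not pass either.

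PGK1, the first ATP-yielding enzyme of the pathway, and PKM, the pyruvate kinase of most tissues, were the risers of this stretch. PGK1 read 11.89, 11.68 and 11.71 in shCON and 11.95, 12.22 and 12.14 in shCypB at its brighter probe. The groups were separated by a narrow gap, and the log2 change was 0.34 ± 0.11 (adjusted p = 0.047). Its other probe had a log2 change of 0.25 ± 0.10 (adjusted p = 0.088). PKM read 12.00, 12.00 and 11.97 in shCON and 12.34, 12.24 and 12.32 in shCypB, a log2 change of 0.31 ± 0.09 (adjusted p = 0.026). Its 3 probes, annotated to different transcripts, had close log2 changes of 0.31, 0.33 and 0.29, the last of which did not pass (adjusted p = 0.076). The PGK1 call was lost without shCON replicate 2 or 3 or without shCypB replicate 2 or 3 (adjusted p = 0.10 to 0.14), and the PKM call without any array but shCypB replicate 2 (adjusted p = 0.055 to 0.081).

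**Figure D3:**
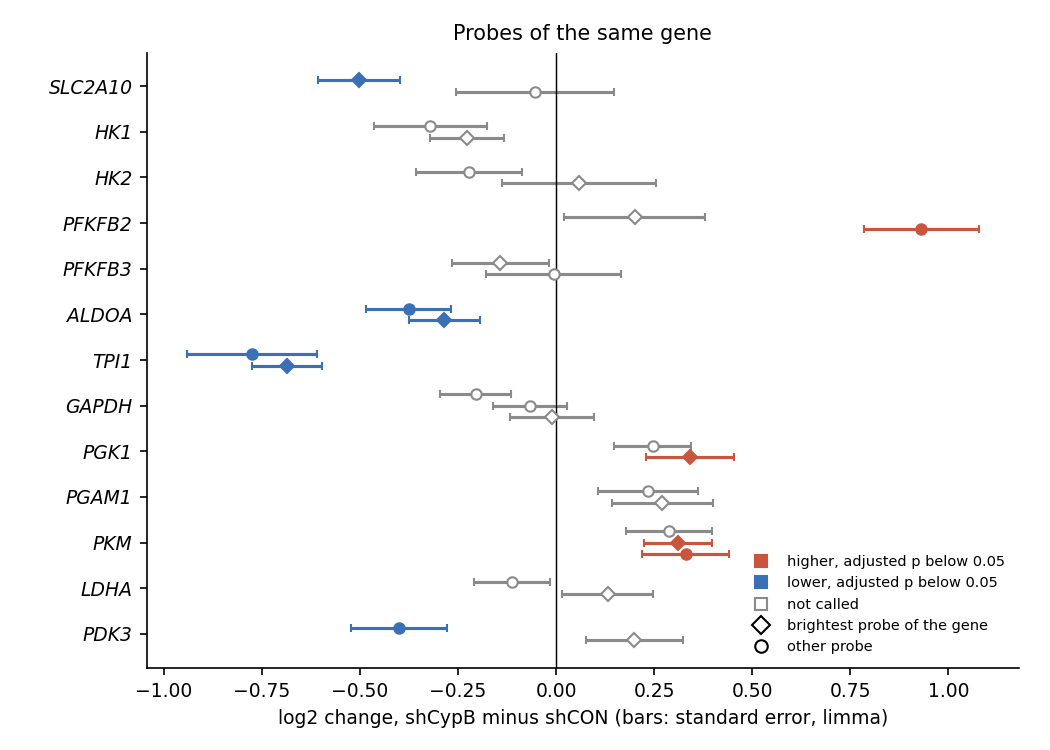
Log2 change (shCypB minus shCON, x axis) of each tested probe of the 13 members with at least 2 of them, with the limma standard error as bars, diamonds for the brightest probe of a gene and filled symbols for adjusted p below 0.05. In 8 of the 13 all probes had the same call, in 5 (SLC2A10, PFKFB2, PGK1, PKM and PDK3) they differed, and in 0 were probes called in opposite directions.

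At the pyruvate branch most genes were not called. LDHA, the lactate dehydrogenase subunit that favours lactate formation, read 8.89, 8.59 and 8.90 in shCON and 8.98, 8.95 and 8.85 in shCypB. Its groups overlapped, with log2 changes of 0.13 ± 0.12 and -0.11 ± 0.10 at its 2 tested probes. LDHB, the other subunit, had a log2 change of 0.00 ± 0.10, with an interval of -0.22 to 0.23. PDHB encodes the beta subunit of pyruvate dehydrogenase, the entry enzyme of mitochondrial pyruvate use. It read 11.21, 11.15 and 11.21 in shCON and 10.69, 10.87 and 10.78 in shCypB, and was lower on each shCypB array, with a log2 change of -0.41 ± 0.09 (adjusted p = 0.011). PDHA1, which encodes the partner alpha subunit, had a log2 change of 0.07 ± 0.09 that did not pass, with an interval of -0.15 to 0.28.

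The PDK genes encode kinases that switch pyruvate dehydrogenase off. PDK1 was detected on 0 of 6 arrays and was not tested. PDK2 was detected on 2 shCON arrays and 1 shCypB array, and its log2 change of -0.06 ± 0.27 had a wide interval of -0.69 to 0.56. The 2 probes of PDK3 disagreed. The brighter one had a log2 change of 0.20 ± 0.12 (adjusted p = 0.25). The other read 8.86, 8.60 and 8.72 in shCON and 8.30, 8.51 and 8.17 in shCypB, a log2 change of -0.40 ± 0.12 (adjusted p = 0.036).

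In the pentose phosphate pathway 3 genes fell and 1 rose, with both directions among the enzymes that interconvert sugars. PGD makes NADPH and ribulose phosphate. The deposited signals read 3057.2, 4157.4 and 2282.7 in shCON against 1920.9, 1199.8 and 2046.4 in shCypB. After normalization its log2 signal was 11.75, 11.80 and 11.57 in shCON and 10.68, 10.13 and 10.82 in shCypB. All shCypB arrays were below all shCON arrays, with shCypB replicate 2 the lowest. The log2 change was -1.16 ± 0.18 (95% interval -1.58 to -0.74, adjusted p = 0.0022). PGLS, the lactonase of the step before, had a log2 change of -0.11 ± 0.11 and was not called.

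TKT and TALDO1 encode transketolase and transaldolase, which exchange carbon between pentose and glycolytic sugars. TKT read 12.15, 12.18 and 12.06 in shCON and 11.76, 11.52 and 11.65 in shCypB, a log2 change of -0.49 ± 0.10 (adjusted p = 0.0076). TALDO1 read 12.17, 12.33 and 12.09 in shCON and 11.97, 11.79 and 11.87 in shCypB, a log2 change of -0.32 ± 0.11 (adjusted p = 0.047). Both were lower on every shCypB array, and both falls were smaller than that of PGD. RPIA, the isomerase that makes ribose phosphate, read 8.15, 8.23 and 8.07 in shCON and 8.60, 8.35 and 8.50 in shCypB, a log2 change of 0.33 ± 0.10 (adjusted p = 0.039). RPE, the epimerase beside it, had a log2 change of 0.06 ± 0.12 and was not called. The TALDO1 call was lost without any array but shCON replicate 3 (adjusted p = 0.065 to 0.14) and under median scaling. There the TALDO1 log2 change was -0.07, or -0.32 relative to the median of all tested genes. The RPIA call was lost without any array but shCypB replicate 2 (adjusted p = 0.051 to 0.13).

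The promoters of the 3 pentose genes that fell are printed to show what the sequence before each start holds. That of PGK1, a textbook target of hypoxia signalling, is printed beside them as a gene that rose. The PGK1 call was lost under 7 of 16 other settings, and other members with the letters named below fell or were not called. Each sequence is the 250 bases before the gene's annotated RefSeq start (GRCh38.p14), written 5′ to 3′ on the gene's strand. Capitals mark matches on either strand to the letters ACGTG or GCGTG, which form the core of hypoxia response elements, to TGACNNNGC, the core of the antioxidant response element bound by NRF2, or to CACGTG, the E-box bound by the MYC family, which contains ACGTG.
PGD, chr1:10398814-10399063, plus strand: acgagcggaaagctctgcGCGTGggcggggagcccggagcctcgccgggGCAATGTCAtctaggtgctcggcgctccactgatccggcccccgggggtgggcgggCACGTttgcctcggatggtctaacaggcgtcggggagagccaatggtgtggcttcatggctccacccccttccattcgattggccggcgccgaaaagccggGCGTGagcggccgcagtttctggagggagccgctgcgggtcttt
TKT, chr3:53256023-53256272, minus strand: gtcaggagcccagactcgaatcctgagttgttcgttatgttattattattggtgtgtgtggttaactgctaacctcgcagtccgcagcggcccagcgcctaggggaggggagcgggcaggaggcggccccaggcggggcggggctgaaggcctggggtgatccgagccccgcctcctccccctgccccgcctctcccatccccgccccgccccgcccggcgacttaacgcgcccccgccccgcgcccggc
TALDO1, chr11:747214-747463, plus strand: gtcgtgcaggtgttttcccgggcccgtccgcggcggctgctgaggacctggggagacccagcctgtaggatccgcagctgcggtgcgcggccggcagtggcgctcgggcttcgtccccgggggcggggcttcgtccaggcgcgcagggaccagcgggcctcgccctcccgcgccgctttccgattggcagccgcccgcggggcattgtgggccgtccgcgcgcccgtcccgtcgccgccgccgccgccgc
PGK1, chrX:78103998-78104247, plus strand: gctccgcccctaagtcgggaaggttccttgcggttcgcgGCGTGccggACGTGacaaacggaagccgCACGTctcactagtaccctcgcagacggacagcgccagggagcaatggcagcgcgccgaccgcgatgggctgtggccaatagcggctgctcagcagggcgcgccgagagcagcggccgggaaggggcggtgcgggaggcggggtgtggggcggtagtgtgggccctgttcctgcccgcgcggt

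PGD held 1 match to ACGTG, 2 to GCGTG and 1 to TGACNNNGC, and PGK1 held 2 to ACGTG and 1 to GCGTG. The windows of TKT and TALDO1 held none of these letters. Sequences were found for 32 of the 34 members, all but SLC2A3 and PFKFB2. Of these 32, 4 rose, 9 fell, 18 were not called and 1 was not tested. ACGTG was present in 34.4% of the members' windows and in 18.7% of all 27305 windows of that length. GCGTG was present in 37.5% and 31.9%, TGACNNNGC in 18.8% and 11%, and CACGTG in 12.5% and 6.49%. Among the members with ACGTG, 1 rose (PGK1), 4 fell (ALDOA, PDHB, PGD and SLC2A10) and 6 were not called. Among those with GCGTG, 2 rose, 3 fell and 7 were not called. For TGACNNNGC the counts were 1, 2 and 3, and for CACGTG 0, 1 and 3. Whether any match bears on a call was not tested. A match is a description of the sequence and not a binding site.

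Genes that surround these steps give the wider setting. Counts in these short lists stand beside shares of 23.1% higher and 20.8% lower among all tested genes. Whether a list as a whole moved was not tested. Most other glucose transporters were undetected, with 3 of 12 tested. SLC2A6, a lysosomal member of the family, fell by 1.24 ± 0.13 on the log2 scale (log2 change -1.24, adjusted p = 4.7e-04), and 0 rose. Of 17 further glycolysis genes 5 were tested, and 4 rose and 0 fell. BPGM, which makes and breaks down bisphosphoglycerate, had a log2 change of 1.04 ± 0.14, the muscle enolase gene ENO3 of 0.85 ± 0.15, and ADPGK, an ADP-dependent glucokinase, of 0.77 ± 0.10. PGAM4 (0.35 ± 0.10) is a near-identical retrocopy of PGAM1, so its probes may read either gene, and its call was lost without any array but shCypB replicate 3 (adjusted p = 0.052 to 0.11). The other tested PGAM4 probes were not called (adjusted p = 0.066 and 0.11).

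Genes around pyruvate entry also included risers. Of 12 such genes 8 were tested, and 3 rose and 0 fell, where 23.1% of all tested genes rose and 20.8% fell. All 3 risers encode partners of PDHB in the pyruvate dehydrogenase complex. PDHX, the component that holds the dihydrolipoyl dehydrogenase, read 8.96, 9.09 and 8.83 in shCON and 9.64, 9.72 and 9.65 in shCypB, a log2 change of 0.71 ± 0.10 (adjusted p = 0.0015). DLAT, the acetyltransferase core, had a log2 change of 0.61 ± 0.11 (adjusted p = 0.0046), and DLD, the dihydrolipoyl dehydrogenase, of 0.34 ± 0.10 (adjusted p = 0.028). Their groups did not overlap, and the direction was opposite to that of PDHB in the same fit. The DLD call was lost without shCON replicate 1 or 2 or without shCypB replicate 1 or 3 (adjusted p = 0.060 to 0.094).

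Of 10 pentose and ribose genes 9 were tested, of which 2 rose and 2 fell, where 23.1% of all tested genes rose and 20.8% fell. TKTL1, a transketolase-like gene, fell by 1.20 ± 0.14 (log2 change -1.20, adjusted p = 7e-04) and PRPS2, which activates ribose phosphate for nucleotide synthesis, had a log2 change of -0.51 ± 0.10. SHPK, the sedoheptulose kinase, rose by 0.57 ± 0.10 and PRPSAP2, a partner of the PRPS enzymes, by 0.32 ± 0.09. The PRPSAP2 call was lost without any array but shCON replicate 1 (adjusted p = 0.052 to 0.083). PRPS2 was not called under median scaling (log2 change -0.22, adjusted p = 0.54), where its change relative to the median of all tested genes was -0.47. Both tested genes of gluconeogenesis fell. PCK2, the mitochondrial phosphoenolpyruvate carboxykinase, read 8.07, 8.25 and 8.21 in shCON and 5.93, 5.92 and 6.24 in shCypB, a log2 change of -2.15 ± 0.12 (adjusted p = 4.5e-05). G6PC3, a ubiquitous glucose phosphatase, had a log2 change of -0.93 ± 0.13 (adjusted p = 0.0012).

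Of 16 glycogen and hexosamine genes 11 were tested, of which 4 rose and 1 fell, where 23.1% of all tested genes rose and 20.8% fell. PGM2L1, which makes glucose bisphosphate, read 8.21, 8.35 and 8.52 in shCON and 10.54, 10.33 and 10.54 in shCypB, a log2 change of 2.11 ± 0.12 (adjusted p = 4.5e-05). PGM2, a phosphopentomutase, rose by 1.29 ± 0.11 and UGP2, which makes UDP-glucose, by 0.71 ± 0.11, with both UGP2 probes that were detected on all 6 arrays called higher. PYGL, a glycogen phosphorylase, had a log2 change of -0.82 ± 0.10. Of 15 regulators 10 were tested, of which 0 rose and 3 fell, beside the same shares of all tested genes. ARRDC4, an arrestin that restrains glucose uptake, read 8.15, 8.16 and 7.97 in shCON and 6.85, 6.79 and 6.88 in shCypB, a log2 change of -1.25 ± 0.10 (adjusted p = 1.4e-04). PRKAA1 and PRKAG1, subunits of the energy sensor AMPK, had log2 changes of -0.62 ± 0.11 and -0.46 ± 0.13. The PRKAG1 call was lost without any array but shCON replicate 3 (adjusted p = 0.057 to 0.078). The dimmer PRKAA1 probe was not called (-0.23, adjusted p = 0.22). PRKAG2, a further AMPK subunit named after its values were seen, had log2 changes of 0.37 (adjusted p = 0.064) and 0.49 (adjusted p = 0.048) at its 2 tested probes. Under median scaling PYGL, PRKAA1 and PRKAG1 were not called (log2 changes -0.53, -0.33 and -0.17). Relative to the median of all tested genes these changes were -0.78, -0.58 and -0.42. TXNIP, the arrestin related to ARRDC4, had a log2 change of 0.11 ± 0.12 and was not called.

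**Figure D4:**
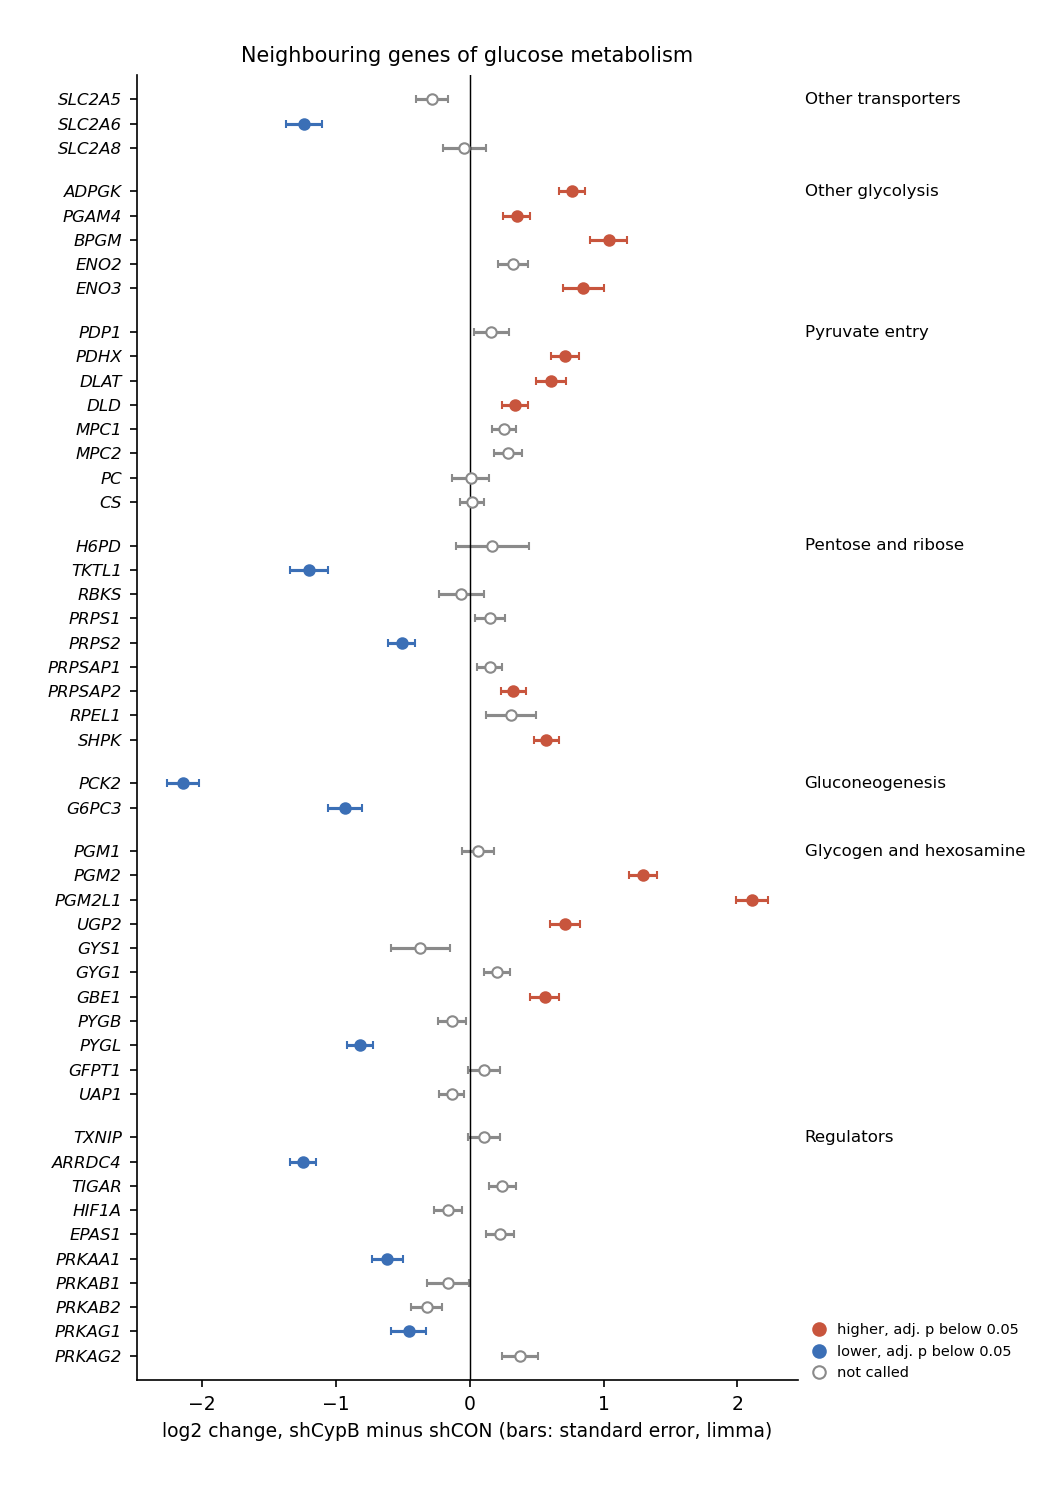
Log2 change (shCypB minus shCON, x axis) of the tested neighbouring genes, grouped by list, with the limma standard error from 3 arrays per group as bars and filled points for adjusted p below 0.05. PGM2L1 at 2.11 and PCK2 at -2.15 lie farthest from 0, and the called genes of pyruvate entry (PDHX, DLAT and DLD) lie above 0.

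Whether the smaller changes were called depended on how arrays were made comparable. Of the 14 member calls, those of SLC2A3 and PGD were made under all 16 other settings tried. The log2 change of SLC2A3 lay between 1.96 and 2.67 and that of PGD between -1.30 and -0.89. Those of SLC2A12, PFKL, TPI1, PDHB and TKT were lost under 1 setting, median scaling, where their log2 changes were -0.51, -0.45, -0.44, -0.13 and -0.24 against a median of 0.25 over all tested genes. With that median subtracted, the changes were -0.76, -0.70, -0.69, -0.38 and -0.49. Median scaling also ended the calls of SLC2A10 (log2 change -0.22, adjusted p = 0.54), ALDOA (-0.02, 0.96), TALDO1 (-0.07, 0.87), PGK1 (0.60, 0.052) and PKM (0.57, 0.066), which were lost under other settings too. With the median of all tested genes subtracted, these changes were -0.47, -0.27, -0.32, 0.35 and 0.32, in that order.

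**Figure D5:**
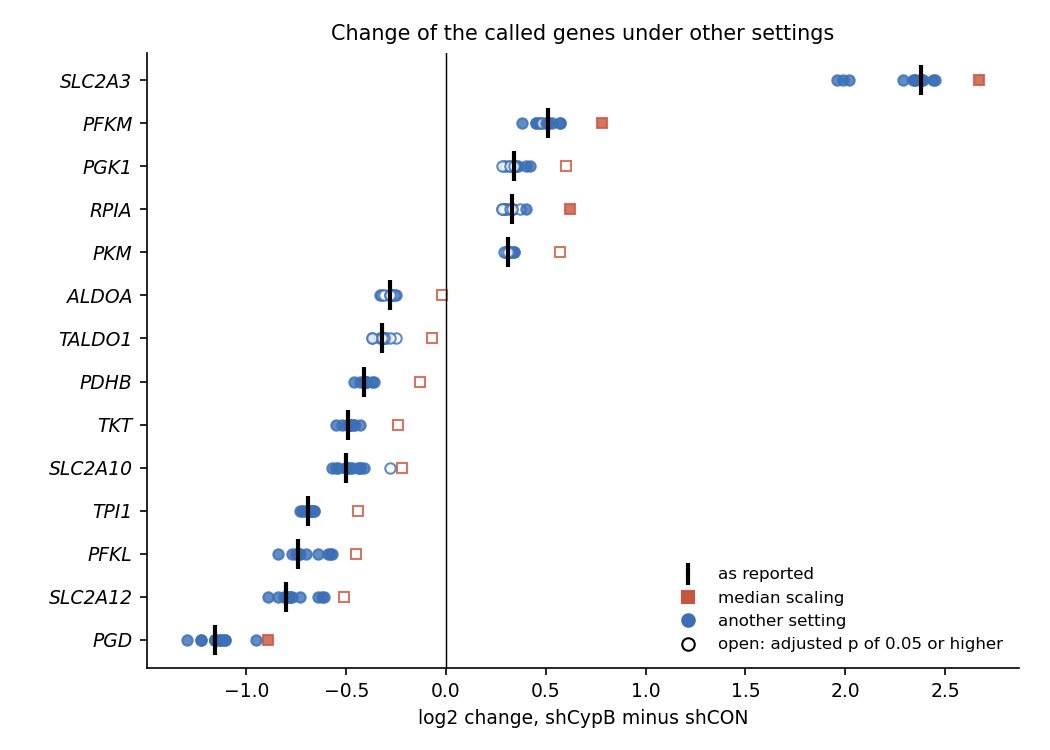
Log2 change (shCypB minus shCON, x axis) of the 14 called members under each of the 16 other settings, with a black bar for the reported value, squares for median scaling, and open symbols where the adjusted p was 0.05 or higher. SLC2A3 and PGD keep filled symbols throughout, and median scaling moves each gene upward, as it does the median of all tested genes.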

How the data were processed

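The authors deposited bead signal intensity per probe on a linear scale, with no normalization between arrays, and a detection p-value for each, per the file headers. A further deposited table gives intensity after the authors' own processing, linear and not centred (array medians 77.9 to 80.4), and served as an alternative. The submitters' processing notes name Partek. Their normalization method is not stated in those notes or in the headers. No slide is named, so it could not be a block.

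Signals were background corrected by normexp in limma 3.58.1 (R 4.3.3), with an offset of 16 and negative controls estimated through the detection p-values, quantile normalized and log2 transformed. Group was the only term in lmFit and eBayes (4 residual and 3.51 prior degrees of freedom), with Benjamini-Hochberg adjustment over 17608 probes detected at p below 0.05 on at least 3 arrays. Every adjusted p comes from limma. Errors beside changes are standard errors (n = 3 per group). The fit was tested on simulated data. With 3 arrays per group the number of arrays limits precision. A fold against a group with no detected array is a bound, set from the lowest detected signal of each array. An array signal is not compared between genes.

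The probe table gave 1 symbol for 30113 probes, several for 8 and none for 17110, and symbols were updated to RefSeq. A gene is its brightest tested probe. All members could be named, and of each other list up to 4 called genes with the greatest change. Members and lists were chosen with earlier results of these data known. Alternatives were 2 background corrections, 2 normalizations, 2 filters, probe averaging, a variance trend, the authors' table, each array left out and a replicate block. Same-numbered samples did not deviate together (r of -0.11 to 0.0095), so the numbers were not taken as pairs.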

Additional observations from a re-analysis of the deposited data

How the results depend on the processing

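Over the 16 other settings, 2 of 14 member calls (SLC2A3 and PGD) were made every time, and 15 of 19 uncalled members stayed uncalled, while SLC2A1, HK1, PGAM1 and PFKFB2 gained a call under 1 or 2 settings. Against 5 members higher and 9 lower, median scaling gave 3 and 1, no filter on dim probes gave 3 higher, and leaving out 1 array gave 2 to 4 higher and 7 to 8 lower. With the replicate block there were 2 higher and 7 lower, 5 calls being lost (ALDOA, PGK1, PKM, RPIA and TALDO1), and the numbers are not known to pair samples. Over all tested genes median scaling left 642 lower against 2184 and moved the share of higher among called genes from 52.6% to 79.8%, with the median shifted to 0.25. The cause was not tested. The other settings kept that share between 50.1% and 53.8%. The count of higher genes lay between 1839 and 2190 and that of lower genes between 1749 and 1987 when 1 array was left out. No result reversed in direction with a call. Of 37 named genes outside the members, tested markers included, 29 were called and 19 of these had the same call under each setting that gave a value. Dim probes (PFKFB2, ALDOC, PDK2, HK2 and PPIB) lie close to background, where changes are understated.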
